A study of Rattus norvegicus with 68 samples.

Results

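The outer medulla and the cortex of the same rat were compared in 6 intact Dahl-Iwai rats, a salt-sensitive strain, that had eaten a low-salt diet for 14 weeks. The labels do not say whether both pieces came from the same kidney. The comparison used 12 of the 68 arrays of the series, chosen by strain, gonadal state, diet and tissue in the sample titles. Each rat gave 1 array of cortex and 1 of outer medulla. The females were rat103, rat104 and rat105 and the males rat109, rat110 and rat111, all separate animals per the labels, with no age given. The same zone comparison served as a check in other animals. These were 6 low-salt gonadectomized Dahl-Iwai rats (12 arrays) and 6 low-salt Sprague-Dawley rats (12 arrays), again with 3 females and 3 males each. The 4 intact high-salt rats with both tissues (8 arrays, 2 females and 2 males, 14 weeks of high salt) were used to see where diet altered the zone difference.

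No array set held both zones, so zone and array set cannot be told apart in any of the 3 experiments. The outer medulla arrays of the gonadectomized rats came in 2 sets, 1 of females and 1 of males, and each other zone of an experiment in 1. The deposited intensities had array medians of 22.7 to 24.1 in cortex and 36.7 to 38.7 in outer medulla, and the scale below is the intensity after quantile normalization of the 12 arrays. Among the 6 rats, the female rat105 stood apart in a number of genes, described with the results it touches. Values under 3.28 units were set to that floor. A zone difference is the log2 intensity of outer medulla minus that of cortex, averaged over the 6 rats, with its standard error (SE). A gene was called when its adjusted p was under 0.05 and the difference was at least 2-fold.

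The 2 zones hold different stretches of the nephron. Cortex contains the glomeruli, the convoluted part of the proximal tubule, where most filtered glucose, phosphate and amino acids are taken back, and the distal convoluted tubule, the site of thiazide-sensitive salt uptake. The outer medulla contains the straight end of the proximal tubule, called S3, the medullary thick ascending limb, where furosemide-sensitive salt uptake builds the concentration gradient, and the outer medullary collecting duct. In pieces of whole tissue, fewer cells of a type and less RNA per cell cannot be told apart.

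Of the transporters that mark these segments, 4 stand for the contrast below and their upstream sequences are shown. They are Slc5a2, the glucose carrier SGLT2 of the early proximal tubule, Slc34a1, the proximal phosphate carrier NaPi-2a, Slc12a3, the thiazide-sensitive carrier NCC of the distal convoluted tubule, and Slc12a1, the furosemide-sensitive carrier NKCC2 of the thick ascending limb. Each line gives the 250 bases before the RefSeq gene start in build GRCr8, 5′ to 3′ on the gene's strand. Capitals mark GTTAAT or its reverse complement ATTAAC, which is one arm of the palindrome known to be bound by HNF1 proteins of the proximal tubule.
Slc5a2, chr1:192277371-192277620, plus strand: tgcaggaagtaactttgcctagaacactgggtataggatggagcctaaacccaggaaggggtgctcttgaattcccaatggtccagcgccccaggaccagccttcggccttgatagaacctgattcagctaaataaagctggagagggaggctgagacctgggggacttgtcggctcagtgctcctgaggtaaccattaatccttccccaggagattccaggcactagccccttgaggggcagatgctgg
Slc34a1, chr17:9238984-9239233, minus strand: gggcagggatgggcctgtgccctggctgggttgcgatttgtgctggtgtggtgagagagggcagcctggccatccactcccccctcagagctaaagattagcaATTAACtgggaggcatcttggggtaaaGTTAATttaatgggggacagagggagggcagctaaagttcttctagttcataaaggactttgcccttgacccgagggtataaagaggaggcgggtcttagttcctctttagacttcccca
Slc12a3, chr19:10675051-10675300, minus strand: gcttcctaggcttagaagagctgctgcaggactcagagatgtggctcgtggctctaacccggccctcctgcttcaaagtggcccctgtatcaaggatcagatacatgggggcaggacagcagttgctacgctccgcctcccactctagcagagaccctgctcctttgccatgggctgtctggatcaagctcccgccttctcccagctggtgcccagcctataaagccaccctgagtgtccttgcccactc
Slc12a1, chr3:132859409-132859658, plus strand: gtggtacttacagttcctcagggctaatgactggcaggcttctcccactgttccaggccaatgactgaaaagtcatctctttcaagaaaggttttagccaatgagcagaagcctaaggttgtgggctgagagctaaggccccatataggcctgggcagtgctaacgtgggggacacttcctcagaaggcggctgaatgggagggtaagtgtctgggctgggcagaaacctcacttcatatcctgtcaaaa

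The 6 letters were present, on either strand, in 6.45% of the 33469 RefSeq promoters of this length. They were in 1 of the 15 promoters matched to the 17 tested genes of the proximal convoluted tubule, which was that of Slc34a1 with 2 matches, and in 0 of the 9 matched to the thick ascending limb list. Of 25 promoters matched to 28 tested genes of gluconeogenesis and amino acid metabolism, those of Pck1 and Hpd held them, and of 5 matched to the distal convoluted and connecting tubule list 1 did, that of Slc8a1. A match describes these letters only.

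Across the array, 402 genes (11.1% of 3631 tested) were at least 2-fold higher in outer medulla and 491 (13.5%) were at least 2-fold lower, by limma with the rat as a block. Without the 2-fold minimum, 72.5% of genes passed the adjusted p, so passing it alone says little of any one gene. The 6 outer medulla values did not overlap the 6 cortex values for 54% of the genes. The median difference of all genes was -0.06 on the log2 scale. When the intensities were taken as deposited, the median over all probe sets rose to 0.58 and the split of the calls moved from 852 higher (13.9%) and 796 lower (13%) probe sets to 1865 and 347, so that a small difference has no settled direction, and the groups below are read against the median of all genes.

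Genes of the proximal convoluted tubule were lower in outer medulla. Of 17 tested genes, 12 were called lower and 1 higher, with a median difference of -2.14 against -0.06 for all genes. Slc5a2 had the largest fall among them. Its lowest, median and highest normalized intensities were 2724, 3201 and 3626 in cortex and 18.3, 18.7 and 30.3 in outer medulla, a difference of -7.29 ± 0.105 (SE, n = 6 pairs, adjusted p = 5.02e-09), and every cortex value lay above every outer medulla value. The basolateral glucose carrier Slc2a2 differed by -3.65 ± 0.102, the organic anion carrier Slc22a6 by -4.04 ± 0.239, the dicarboxylate carrier Slc13a3 by -3.89 ± 0.301 and the sulfate carrier Slc13a1 by -3.66 ± 0.0691. The basolateral bicarbonate carrier Slc4a4 was 11.7-fold lower. The phosphate carrier Slc34a1 was 2.58-fold lower on its brightest probe set, from 17348, 21634 and 24955 in cortex to 6476, 7838 and 12137 in outer medulla. Its 5 probe sets ran from -2.46 to -1.10. The apical sodium-hydrogen exchanger Slc9a3, which the thick ascending limb also uses, did not reach 2-fold (0.64 ± 0.24). The only listed gene called higher was Slc20a2, a widely expressed phosphate carrier (1.44 ± 0.0525).

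**Figure D1:**
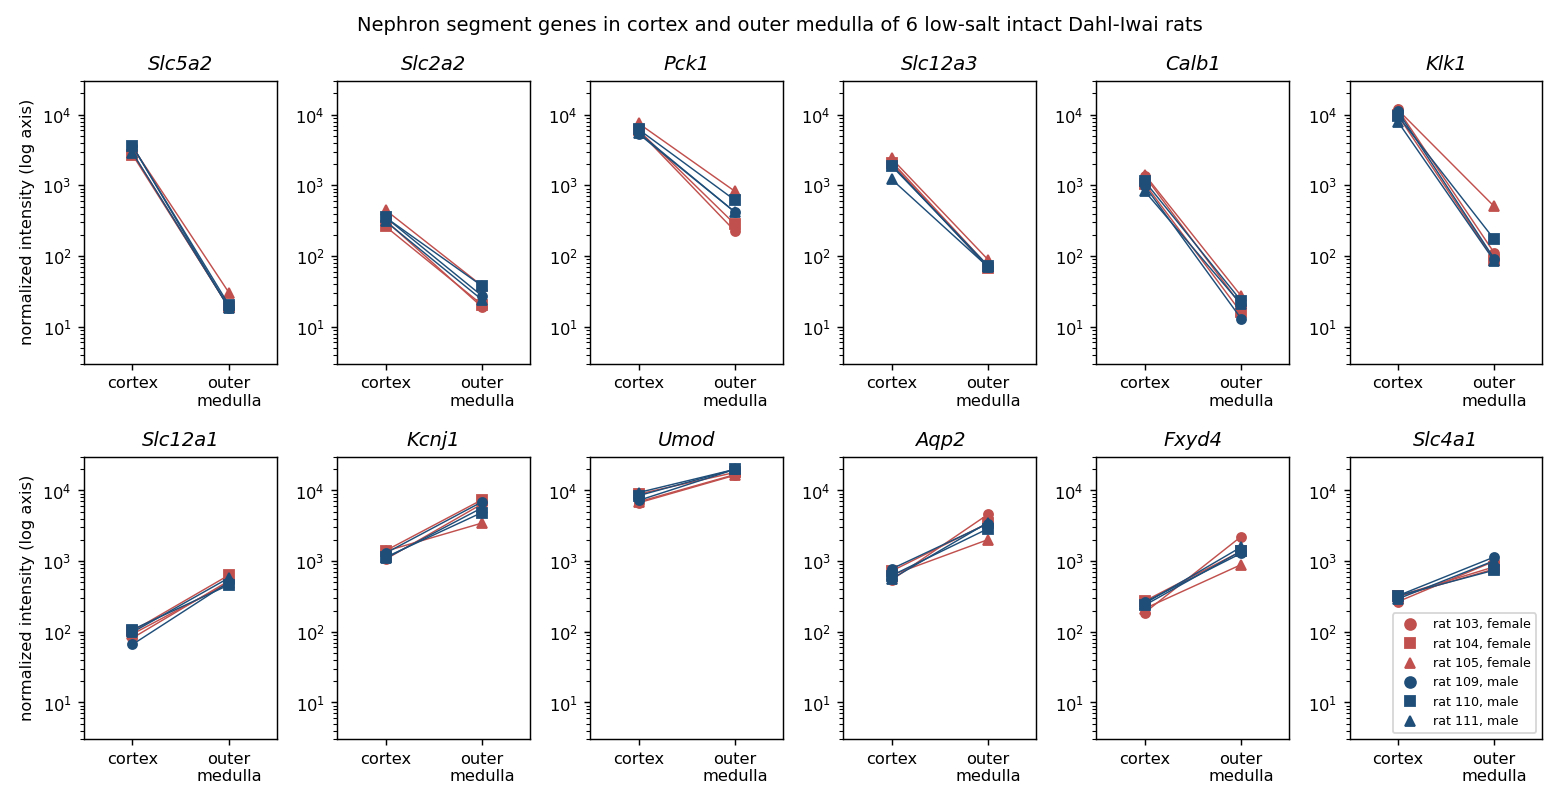
Normalized intensity on a log axis of 12 genes in cortex and outer medulla, with 1 line for each of 6 low-salt intact Dahl-Iwai rats (red for females, blue for males). The upper 6 genes, of proximal and distal convoluted tubule, drop from cortex to outer medulla in every rat (Slc5a2 from a median of 3201 to 18.7), and the lower 6, of thick ascending limb and collecting duct, rise in every rat (Slc12a1 from 95.6 to 516).

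Enzymes of glucose and amino acid synthesis and breakdown were lower in outer medulla too. Of 28 tested genes, 18 were called lower and 0 higher, with a median of -1.47. Pck1, the rate-limiting enzyme of gluconeogenesis, had values of 5378, 5989.7 and 7551 in cortex and 225, 418 and 823 in outer medulla, and its groups did not overlap (-3.85 ± 0.213, adjusted p = 2.51e-06). Fbp1, which acts later in the same pathway, differed by -1.86 ± 0.173, and the pyruvate carboxylase gene Pc by -2.46 ± 0.137. Ddc, which makes dopamine from L-DOPA in the proximal tubule, was at the floor on all 6 outer medulla arrays, against 215, 248 and 282 in cortex, and was at least 74.3-fold lower. The fructose enzymes Khk (-1.16 ± 0.203) and Sord (-2.84 ± 0.165) and the arginine synthesis enzyme Ass1 (-2.48 ± 0.23) were called lower as well.

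Fat oxidation was divided. Of 29 tested genes, 7 were called lower and 1 higher, with a median of -0.44. As deposited 4 were lower and 5 higher, so the balance of calls depends on the scaling. Less the median of all genes, the list's median was -0.39. It was -0.54 as deposited and -0.53 with each array divided by its median. The peroxisomal enzyme Ehhadh (-2.12 ± 0.112) and the medium-chain acyl-CoA synthetase Acsm2 (-2.31 ± 0.172) were lower. Cpt1b, the carnitine transferase isoform of muscle, was the 1 called higher (1.20 ± 0.0927), and Acadm, the medium-chain dehydrogenase, had 0.24 ± 0.108 (adjusted p = 0.0752). Of the respiratory chain genes, 1 of 30 was called higher (Cox5a, 1.09 ± 0.125), with 0 lower and a median of 0.06. Citrate synthase, Cs, was higher by 1.49 ± 0.0829, although the median of the 11 tested citric acid cycle genes was -0.07. In gonadectomized and Sprague-Dawley rats Cox5a was -0.60 and 0.02, and Cs 1.12 and 0.08.

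The straight proximal tubule list held few calls. Of its 10 tested genes, 1 was called higher and 0 lower, and the median was -0.04. Slc5a1, the SGLT1 glucose carrier of S3, had values of 159.9, 216 and 242 in cortex and 154, 172 and 415 in outer medulla, which overlapped (-0.05 ± 0.169, adjusted p = 0.825), next to the 156-fold lower Slc5a2. A second Slc5a1 probe set gave 0.52. The peptide carriers stood likewise, with Slc15a2 of S3 at 0.44 ± 0.242 (adjusted p = 0.136) and Slc15a1 at -2.05 ± 0.28 (adjusted p = 0.000363). The organic anion carrier Slc22a7 had -0.01 ± 0.295 (adjusted p = 0.983) on its brighter probe set and 1.71, which was called, on the other, so its direction is not settled here.

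In the 1 called gene of that list, Slc22a13, an organic anion carrier, rat105 stood far from the others. Its difference was 1.64 ± 0.562 (adjusted p = 0.0311), but the difference was 4.89 in rat105 and between 0.18 and 1.41 in the other 5 rats. The cortex value of rat105 was 31.2 against 199 and 542 in the other females, and its outer medulla value was 923 against 432 and 612. Without the rat block the adjusted p was 0.127, and without rat103, rat109, rat110 or rat111 it was 0.0511, 0.0704, 0.053 and 0.0514. Without rat105 the difference was 0.99 ± 0.176 (adjusted p = 0.00226), under 2-fold, and the S3 list had a median of -0.25 with 0 of 10 genes called in either direction.

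The female rat105 stood apart in several other genes in the same paired measure. The median difference of the S3 list was 0.78 in rat105 and between -0.46 and 0.24 in the other 5, while that of the thick ascending limb list was 1.06 against 1.47 to 1.97, and that of the intercalated cell list -0.33 against 0.59 to 1.29. Slc22a7 was 1.68 in rat105 and -0.61 to 0.01 elsewhere. Hnmt, which inactivates histamine, was 3.99 against 0.75 to 1.88, and Gclc, of glutathione synthesis, was 2.95 against 0.08 to 1.94. In the opposite sense, Mal, a membrane sorting protein of the thick ascending limb, was 0.43 against 1.61 to 2.30, Aqp3 of the collecting duct was 0.34 against 1.08 to 2.08, and Kit of the intercalated cell list was -0.63 against 0.99 to 1.70. Over all tested probe sets, the rat105 arrays correlated with the other arrays of their zone at a median of 0.985 in cortex and 0.982 in outer medulla, where the other arrays gave 0.982 to 0.987 and 0.983 to 0.986. Of the cortex arrays, that of rat105 had 0 probe sets deposited at zero and that of rat110 had 21, where the other 4 had 1337 to 1383, and the outer medulla array of rat105 had 838, within the 794 to 870 of that zone. The part of this in the values of rat105 was not tested. Leaving out rat105 gave 1676 called probe sets instead of 1648, and the proximal convoluted tubule, thick ascending limb and distal lists kept medians of -2.14, 1.80 and -2.20. Whether the pieces of rat105 held another mix of segments than those of the other rats was not tested.

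**Figure D2:**
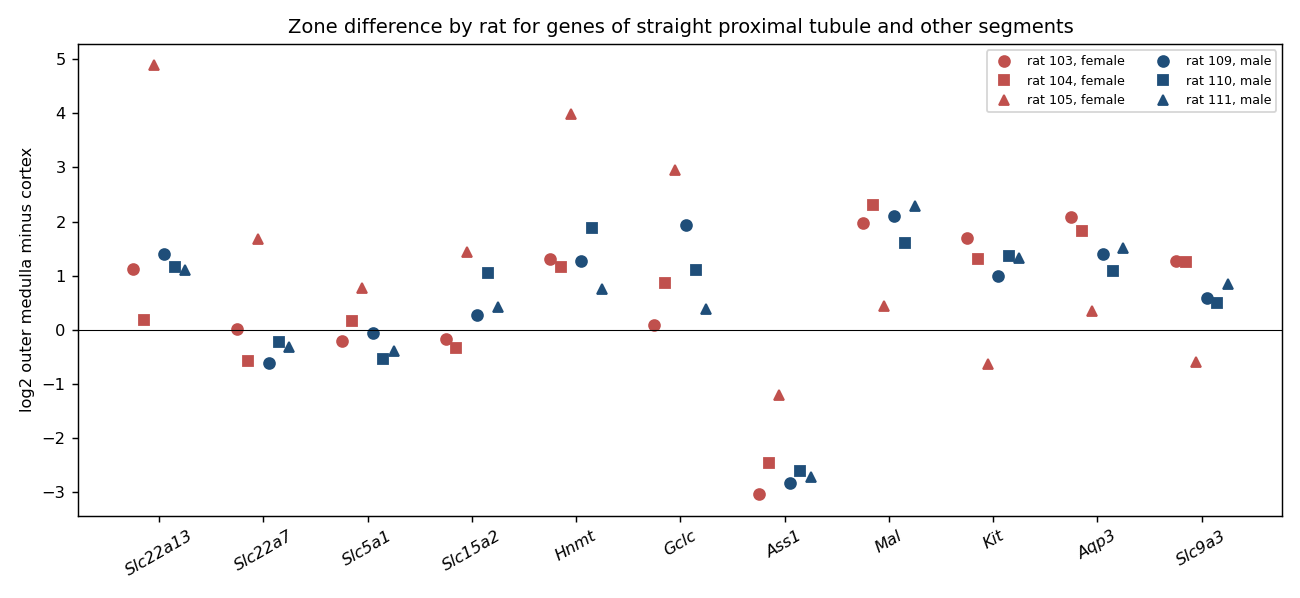
Log2 difference of outer medulla minus cortex in each of 6 low-salt intact Dahl-Iwai rats for 11 genes picked after their values were seen (red for females, blue for males, 1 symbol per rat). The female rat105, the red triangle, lies highest for Slc22a13 (4.89), Slc22a7, Slc5a1, Slc15a2, Hnmt, Gclc and Ass1, and lowest for Mal, Kit, Aqp3 and Slc9a3 (-0.60).

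Thick ascending limb genes were higher in outer medulla. Of 10 tested genes, 8 were called higher and 0 lower, with a median of 1.59. With each array divided by its median, 6 of the 10 were called higher. The largest difference of the 8 was that of Slc5a3 (4.56), a myo-inositol carrier that is also counted with the osmolyte genes below. Slc12a1 had values of 66.2, 95.6 and 107.5 in cortex and 461, 516 and 634 in outer medulla, with no overlap (2.55 ± 0.108, adjusted p = 5.86e-07). Kcnj1, the apical potassium channel ROMK that recycles potassium for that carrier, had 1060.3, 1214 and 1403 in cortex and 3457, 6056 and 7386 in outer medulla (2.20 ± 0.165). Ptger3, a prostaglandin E2 receptor of this segment, differed by 3.14 ± 0.134. Umod, which encodes uromodulin, was bright in both zones and differed by 1.23 ± 0.0671, whereas Egf, the epidermal growth factor of the distal nephron, was under 2-fold on its brighter probe set (0.76 ± 0.124) and at 1.41 on the other. Stk39, the kinase SPAK that activates these chloride carriers, was higher by 3.98 ± 0.139 on the named probe set, but another of its 3 probe sets was lower (-0.32).

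Umod alone of the 8 had the opposite sign in both other groups of rats. It was -0.44 in gonadectomized Dahl-Iwai and -0.12 in Sprague-Dawley rats, where Slc12a1 was 1.66 and 2.11 and Kcnj1 was 1.73 and 1.21. Ptger3 stood at 0.76 and 1.87. The difference between experiments was not tested.

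The distal convoluted and connecting tubule list was lower in outer medulla, with 5 of 7 tested genes called lower, 0 higher, and a median of -2.07. With each experiment's own brightest probe sets, its median was -2.54 in gonadectomized and -0.24 in Sprague-Dawley rats. There 4 of 6 and 3 of 7 genes were called lower, and 0 and 2 higher. On the probe sets used here, Slc12a3 was -3.95 and -3.32 and Calb1 -4.67 and -3.02. Kcnj10, also called lower here, was -0.03 in Sprague-Dawley and untested in gonadectomized rats. Slc12a3 had values of 1223, 2000.1 and 2407 in cortex and 68.9, 71.0 and 88.8 in outer medulla (-4.70 ± 0.114, adjusted p = 3.8e-08). The groups were far apart, and rat111 had the smallest gap (-4.13). Calb1, the calcium buffer calbindin of these cells, fell from 829.8, 1103 and 1424 to 13.0, 20.4 and 27.3 (-5.84 ± 0.128), and the related buffer S100g differed by -2.07 ± 0.137 on its brighter probe set and by -0.11 on the other. Klk1, the tissue kallikrein secreted by the connecting tubule, had cortex values of 8017, 10565 and 11951 and outer medulla values of 85.7, 102 and 505, the highest of them in rat105. The kallikrein relatives Klk1b3 (-7.64 ± 0.0741) and Klk1c3 (-6.71 ± 0.115) were among the 15 largest falls, but near-identical family members may be read by the same probes. Slc12a1 and Slc12a3, close relatives in sequence and function, thus had opposite zone differences of 2.55 and -4.70.

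The collecting duct was mixed. Of 14 tested principal cell genes, 4 were called higher and 0 lower, with a median of 0.40, and the 4 were the water channels Aqp2, Aqp3 and Aqp4 and the vasopressin receptor Avpr2. Aqp2, the channel that vasopressin inserts in the apical membrane, had 542, 629.6 and 777 in cortex and 2018, 3426 and 4601 in outer medulla (2.33 ± 0.174, adjusted p = 1.28e-05), and Avpr2 differed by 1.81 ± 0.144. The subunits of the epithelial sodium channel did not reach 2-fold, at 0.76 for Scnn1a, -0.40 for Scnn1b and -0.51 for Scnn1g. Aqp1, the water channel of proximal tubule and thin limb, had overlapping values (0.24 ± 0.0989, adjusted p = 0.0621). Among 7 intercalated cell genes, 3 were called higher, the anion exchanger Slc4a1 (1.57 ± 0.118), Aqp6 (1.29 ± 0.0514) and Kit (1.01 ± 0.287). One of the 3 probe sets of Slc4a1 had the opposite sign (-0.16). Kit came under 2-fold without rat103 (0.87), rat104 (0.95), rat110 (0.94) or rat111 (0.95), and was 0.10 with the floor at the 40th percentile.

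Of the sodium pump, Fxyd4, a regulator of the collecting duct pump, was higher by 2.58 ± 0.189, from 186, 244 and 273 to 892, 1383 and 2230.3, and the subunit Atp1b3 by 1.34 ± 0.156. The named probe set of Atp1b1, the main renal beta subunit, gave -0.12 ± 0.104 (adjusted p = 0.315). Both its other probe sets were positive at an adjusted p under 0.05, up to 2.74, so the direction of Atp1b1 is not settled here. The basolateral bicarbonate carrier Slc4a7, of the medullary thick ascending limb, was 10.1-fold higher (68.4, 105.8 and 123 in cortex, 544, 1015 and 1577 in outer medulla), opposite to Slc4a4.

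**Figure D3:**
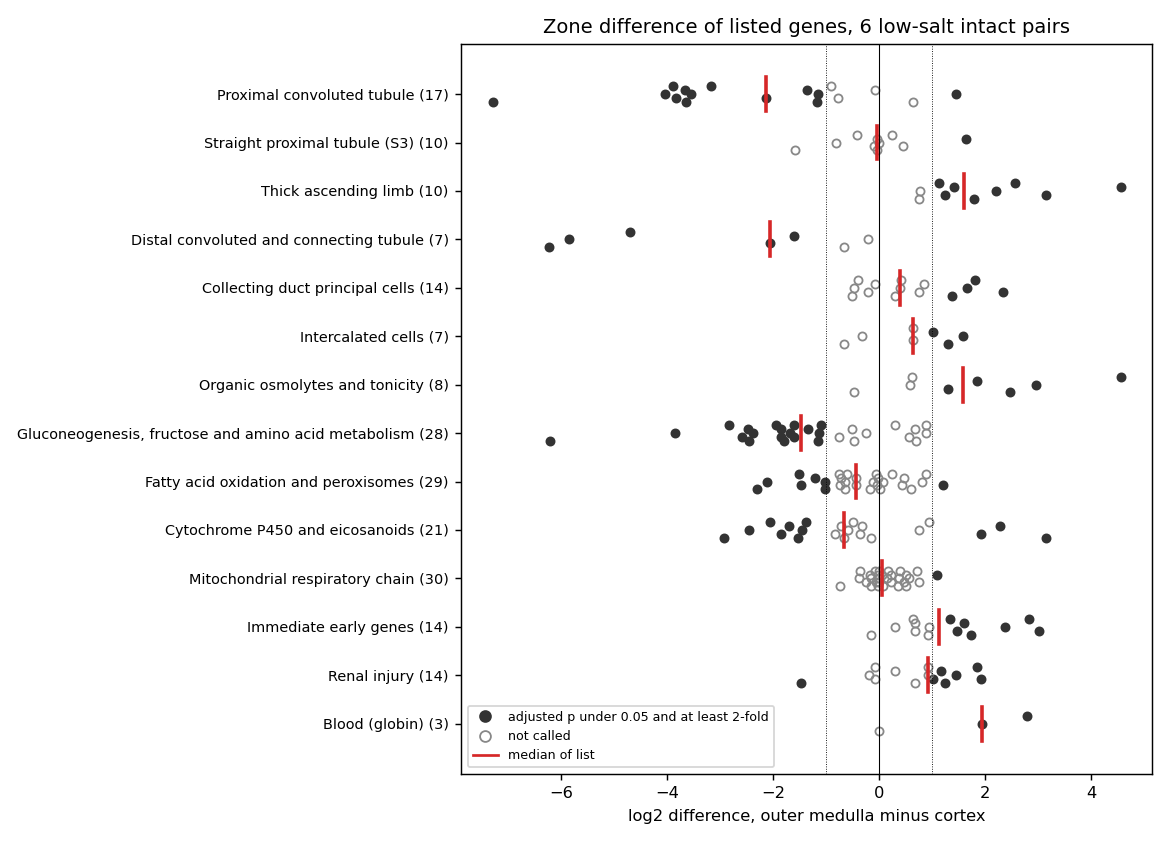
Log2 difference of outer medulla minus cortex for each tested gene of 14 lists (number tested in brackets), with filled points for genes called at an adjusted p under 0.05 and at least 2-fold, open points for the others and a red bar at the list's median. The proximal convoluted tubule (median -2.14) and the distal list (-2.07) lie to the left. The thick ascending limb (1.59) and the osmolyte and tonicity list (1.57) lie to the right, and the S3 (-0.04) and respiratory chain (0.06) lists straddle 0.

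Organic osmolytes are the small solutes that cells of the salty medulla store against shrinkage. Their genes were listed with stress genes of salty surroundings (tonicity), and the list was higher in outer medulla. Of 8 tested genes, 5 were called higher and 0 lower, with a median of 1.57. The 5 were Akr1b1, Slc5a3, Slc6a6 and the small heat shock genes Cryab and Hspb1. Akr1b1, aldose reductase, which makes sorbitol, had values of 148, 152 and 182 in cortex and 537, 1314 and 2507 in outer medulla, with no overlap (2.96 ± 0.303, adjusted p = 7.47e-05). It was 2.90 in gonadectomized and 3.11 in Sprague-Dawley rats. Slc5a3, the myo-inositol carrier, had 6.71, 12.7 and 14.4 in cortex and 158, 241 and 594 in outer medulla (4.56 ± 0.326), but only 0.30 and 1.96 in those other rats. The taurine carrier Slc6a6 was 1.85 here and -1.41 and -0.46 there. Sord, which breaks sorbitol down, ran the other way (-2.84). The small heat shock genes Cryab (2.47 ± 0.277) and Hspb1 (1.30 ± 0.176) were called higher, though 1 of the 4 probe sets of Hspb1 was lower (-0.31).

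Sugar breakdown had 3 of 11 tested glycolysis genes called higher and 0 lower. They were Pfkp (2.04 ± 0.137), Hk1 (1.71 ± 0.102) and Aldoa (1.67 ± 0.176), while Hk2 was -0.53 ± 0.0912 and Pfkl -0.38 ± 0.0829, and both of those turned positive with the deposited scaling. In gonadectomized and Sprague-Dawley rats Pfkp was 2.21 and 1.85, Hk1 1.67 and 1.17, and Aldoa 0.51 and 0.37. The first enzyme of the pathway, hexokinase 1, had values of 219.9, 319.5 and 359 in cortex and 577, 1032 and 1281 in outer medulla, while its other probe set gave 0.14. The median of the 11 genes was 0.02, near that of all genes.

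Cytochrome P450 and eicosanoid genes had 8 of 21 called lower and 3 higher, with a median of -0.67. Those lower included Cyp2e1 (-2.93 ± 0.316), the fatty acid hydroxylase Cyp4a1 (-2.46 ± 0.157), the arachidonic acid epoxygenase Cyp2c23 (-1.85 ± 0.158) and the epoxide hydrolase Ephx2 (-2.06 ± 0.13). Probes of this family may read close relatives. Cyp2c23 was only -0.31 in gonadectomized and -0.43 in Sprague-Dawley rats, and Ephx2 -0.80 and -1.60. Cyp2e1 was -1.87 and -1.65 there, and Cyp4a1 -1.29 and -2.23. The 3 higher were the cyclooxygenases Ptgs1 (1.92 ± 0.149) and Ptgs2 and the receptor Ptger3, while the prostaglandin D synthase Ptgds was lower (-1.53). As deposited, 6 of the 21 were lower and 5 higher. Less the median of all genes, the list's median was -0.61, and -0.63 as deposited. Ptgs2 was at the floor on 5 of 6 cortex arrays and between 10.5 and 36.0 in outer medulla, so that its difference of 2.28 depends on the floor. With the floor at the 40th percentile it was 0.33 (adjusted p = 0.0612), and without rat103 or rat110 Ptgs2 was too dim to test, which left 2 of 20 called higher.

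Glutathione and detoxification genes had 6 of 30 called each way, beside 11.1% of all genes called higher and 13.5% lower. As deposited 9 were higher and 5 lower, and without rat105 or without rat109 4 were higher and 6 lower. Gclc was 0.85 without rat105. The transferase Gsta3 was higher (2.06 ± 0.115), as was Gstm2 (1.32 ± 0.0918), whereas Gsta1 was lower (-1.73 ± 0.161). Gpx3, the secreted glutathione peroxidase made in the proximal tubule, differed by -1.49 ± 0.196 here but by -0.14 and -0.26 in the other rats. Maob, monoamine oxidase B, was 13.1-fold lower.

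Of the renin-angiotensin, endothelin, nitric oxide and natriuretic genes, 8 of 31 were called lower and 1 higher, with a median of -0.30. As deposited 3 were lower and 4 higher, so the balance of calls depends on the scaling. Less the median of all genes, the list's median was -0.25, and -0.19 as deposited. Guca2b, the natriuretic peptide uroguanylin, was at the floor on all 6 outer medulla arrays against 25.8, 26.3 and 27.5 in cortex, and was at least 8.05-fold lower. The guanylate cyclase subunit Gucy1a1 (-2.23 ± 0.0688) and the angiotensin-cleaving aminopeptidase Enpep (-1.87 ± 0.121) were lower, and the 1 higher was Avpr2. The angiotensin receptor Agtr1a had 0.01 ± 0.134 (adjusted p = 0.938) with overlapping zones, although 3 of its 4 probe sets gave negative values, down to -0.36.

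Genes of the immediate early class, which are transcribed within minutes of a stimulus, were higher in outer medulla, with 7 of 14 called higher, 0 lower and a median of 1.13. Dusp1 had values of 105.6, 138 and 171 in cortex and 342, 825 and 1281 in outer medulla (2.38 ± 0.211), and Junb differed by 1.60 ± 0.247 with overlapping zones. Egr1 varied between rats, with 7.29 in rat104, whose cortex value was 54.7, and 1.14 to 2.73 in the others. The list's median was 1.09 in gonadectomized and 0.79 in Sprague-Dawley rats. The summed intensity of the list was 2167 to 4032 in cortex and 2876 to 19043 in outer medulla.

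Markers of tubule injury were higher in part, with 6 of 14 called higher and 1 lower and a median of 0.92. Spp1, osteopontin, had 790.0, 1103 and 1542 in cortex and 3253, 3962 and 5112 in outer medulla (1.92 ± 0.103), and Lcn2 differed by 1.85 ± 0.135. Havcr1, the KIM-1 injury marker of the proximal tubule, was 18.9, 20.1 and 23.0 in cortex and 16.3, 19.6 and 21.7 in outer medulla, overlapping, with -0.08 ± 0.0582 (adjusted p = 0.247).

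Markers of other kidney cells had calls in both directions, beside 11.1% of all genes called higher and 13.5% lower. In lists this small, counts near those shares say little of a cell type. The glomerular list had 2 of 8 genes higher and 2 lower. Of these, Ptpro, a podocyte phosphatase, was lower (-2.23 ± 0.115), as was the podocyte transcription factor Wt1 (-1.19 ± 0.146), while the higher ones were the transcription factor Tcf21 and the cell cycle inhibitor Cdkn1c (2.64-fold). Tcf21 was at the floor on all 6 cortex arrays. Matrix genes had 4 of 19 higher and 1 lower, among them Fn1 (1.77 ± 0.157) and Sparc (1.71 ± 0.138), the latter with 1 of 4 probe sets lower. In gonadectomized and Sprague-Dawley rats Fn1 was 1.19 and 1.48 and Sparc -0.33 and 0.35. The also higher Timp3 was 0.34 and 0.43 there and Dcn 0.20 and -0.12, and the lower Lum was -1.42 and 0.87. Smooth muscle genes had 2 of 7 lower, Cnn1 (-2.52 ± 0.0565) and Tpm2 (-1.18 ± 0.279), and 1 of 7 as deposited. Of 11 leukocyte genes, Cd8b and the lectin Lgals3 (1.65 ± 0.0751) were higher and the lymphocyte receptor Cd5 lower (-2.39 ± 0.0511), with the common leukocyte antigen Ptprc at -0.28 ± 0.0436. Of 7 endothelial genes, Pecam1 was higher (1.35 ± 0.12) and Kdr lower (-1.39 ± 0.18). Wt1, Cnn1 and Cd5 were not tested in the gonadectomized or the Sprague-Dawley rats.

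Globin genes were brighter in outer medulla, with 2 of 3 called. The summed intensity of the 3 globin-list genes was 499 to 1962 in cortex and 1756 to 6901 in outer medulla, and Hbb was higher by 2.78 ± 0.162 with overlapping zones, while Alas2 was -0.01 ± 0.0841. Of 9 liver genes, Serpina1 (1.62 ± 0.0449) and Ahsg (1.17 ± 0.0427) were higher and Fgb lower (-1.48 ± 0.233), with a median of 0.51 and summed intensities of 303 to 391 in cortex and 291 to 609 in outer medulla. Alb, the defining liver gene, was at most 11.1 in cortex and 15.05 in outer medulla. Of 8 adrenal genes on the array 5 were too dim to test, and of the other 3 Cyp11a1 (-2.05 ± 0.0498) and Th (-1.03 ± 0.0498) were called lower, with a list median of -1.03 and sums of 123 to 147 in cortex and 58.8 to 63.2 in outer medulla. In gonadectomized and Sprague-Dawley rats Cyp11a1 was -1.65 and 1.73, Th 0.09 and -0.19, and the adrenal list median -1.41 and 1.12. Of 4 tested adipose genes, Fabp4 alone was called (at least 25.2-fold higher). Lep, at 462 to 586 in cortex and 451 to 737 in outer medulla, and Lpl, at 164 to 215 and 143 to 197, were brighter and not called, while Plin1 was at most 10.2 and Cfd at the floor throughout. The inner medulla and urothelium list had 3 of 4 genes higher, all of which other lists share, and Krt5 and Krt20 stayed at or under 15.9 units. Their part in the zone differences was not tested.

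Beyond the lists, the 15 largest rises and the 15 largest falls in outer medulla were ranked among genes that moved one way in all 6 rats. The largest rise was that of Fst, follistatin, an activin-binding protein, which was at the floor on all 6 cortex arrays and had 611, 1123 and 1461 in outer medulla, at least 323-fold higher. Tesc, a calcium-binding protein, had 3.28, 5.16 and 28.4 in cortex and 266, 468 and 522 in outer medulla (6.11 ± 0.379). The proprotein convertase Pcsk6 was at the floor on 5 of 6 cortex arrays and 139.7 to 271 in outer medulla, so that its difference of 5.85 depends on the floor. The fatty acid binding protein Fabp4 was at least 25.2-fold higher, and the stress-induced Nupr1 (4.32 ± 0.171) and the actin-capping Capg (3.77 ± 0.154) followed. After Klk1b3 and Slc5a2, the falls included the glucuronosyltransferase Ugt2b35 (-6.34 ± 0.203, with 3 of 6 outer medulla arrays at the floor), the proline dehydrogenase relative Prodh2 (-5.06 ± 0.142), the trypsin inhibitor Spink1 (-5.01 ± 0.0791), the monocarboxylate carrier Slc16a6, at least 28.2-fold lower with all 6 outer medulla arrays at the floor, and Spp2 (-4.66 ± 0.252).

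The largest differences were looked up in the other rats. All 15 of the largest falls were called lower in both the gonadectomized and the Sprague-Dawley rats, but of the 15 largest rises 7 were called higher in both. Slc5a2 was -6.52 and -5.13, Calb1 -4.67 and -3.02, and Pcsk6 2.79 and 5.61. In contrast, 5 of the 15 rises were under 2-fold or untested in both other experiments. Atn1 was 4.84 here and 0.65 and 0.85 there, and Polr2a, a subunit of RNA polymerase II, was at least 27.5-fold higher here, with all 6 cortex arrays at the floor, and differed by -0.46 and 0.36 there. Cd8b, a T cell coreceptor, was 3.74, with 4 of 6 cortex arrays at the floor, against -0.19 and 0.76, and the kinase Cdc42bpb 3.68 against -0.12 and 0.29. Rfc1, of which a second probe set gave -0.53, was at least 12.7-fold higher here, with all 6 cortex arrays at the floor, -0.88 in Sprague-Dawley and not tested in gonadectomized rats. Angpt2 was 3.91, 3.31 and -0.38, with 3 of 6 cortex arrays at the floor and 6.26 in rat105 and 2.83 to 3.90 in the other 5. Since zone and array set cannot be told apart, these values do not settle which of them Atn1, Polr2a, Cd8b, Cdc42bpb and Rfc1 follow.

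**Figure D4:**
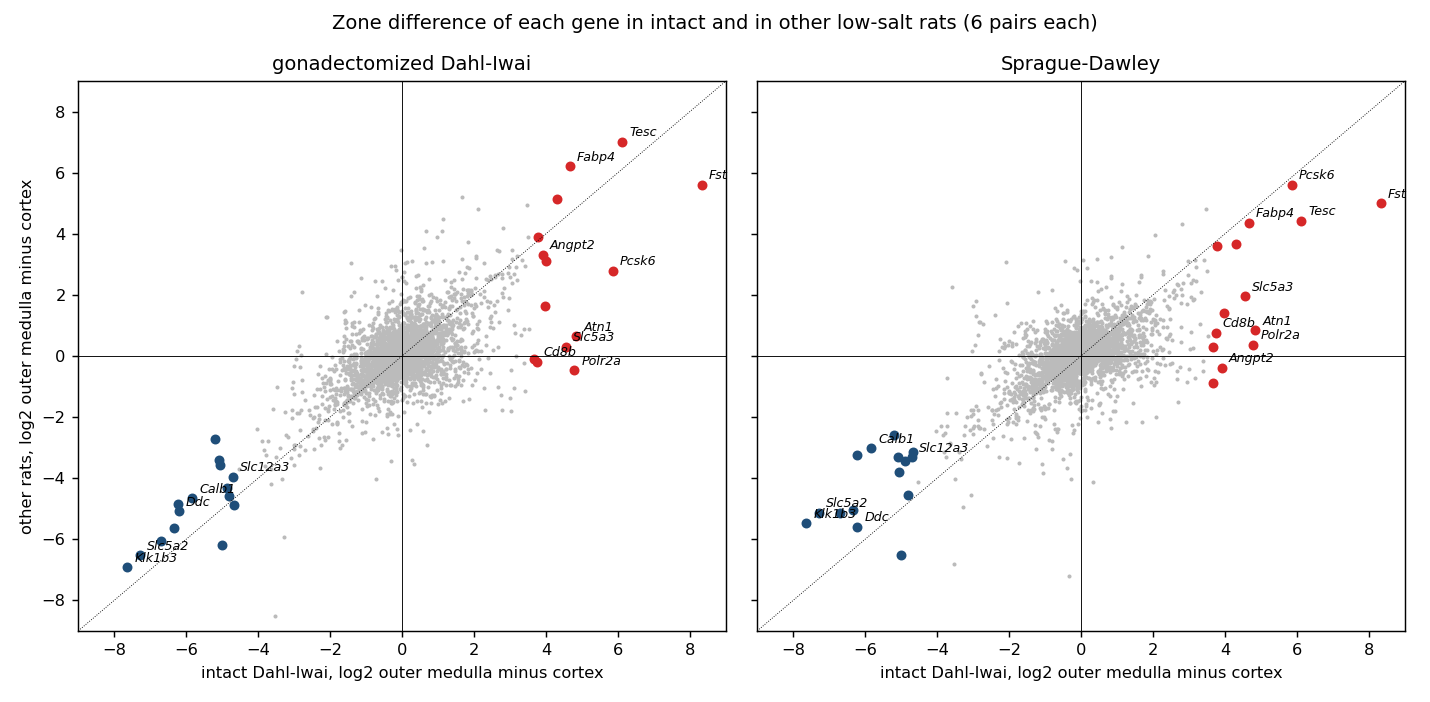
Log2 difference of outer medulla minus cortex for each gene in intact Dahl-Iwai rats (x axis) against gonadectomized Dahl-Iwai (left) and Sprague-Dawley rats (right), 6 pairs each, all low salt; red and blue points are the 15 largest rises and falls of the intact rats, grey the other genes, and the dotted line is equality. The blue points all lie below -2.5 on the y axis, whereas red ones such as Polr2a (-0.46 and 0.36) lie near 0.

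Of the 402 genes higher in outer medulla, 165 were also called higher in gonadectomized rats, 138 in Sprague-Dawley rats and 26.1% of the 402 in both. Of the 491 lower genes, 188, 197 and 144 (29.3%) were. Genes too dim to test in another experiment count as not met, and 361 of the 402 and 384 of the 491 were tested in both. The background in those rats was 11% of genes higher and 10.5% lower in gonadectomized, and 8.28% and 9.24% in Sprague-Dawley rats. Genes called the opposite way numbered 17 and 6 of those higher, and 17 and 14 of those lower. The share of calls met in all 3 experiments differed by brightness. Among genes whose brighter zone had a median under 50 units, 9 of 155 higher (5.81%) and 10 of 196 lower (5.1%) were called in all 3 experiments, and among those over 200 units, 64 of 133 (48.1%) and 101 of 178 (56.7%) were. Jund shows the dim case, at the floor on all cortex arrays and 25.9 to 27.3 in outer medulla, at least 8.09-fold higher, but -1.80 in gonadectomized rats.

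Ranked by the smallest of the 3 differences, the genes higher in all 3 experiments were led by Fst (smallest fold 32.1), followed by Tesc, Fabp4, Nupr1 and Capg, with smallest differences of 4.43, 4.36, 3.65 and 3.61. Below them came Akr1b1 (2.90), the growth factor Igf1 (2.90) and the glucagon receptor Gcgr (2.79), which had 2.79 in intact, 4.20 in gonadectomized and 4.31 in Sprague-Dawley rats. Igf1 had 3.17, 2.90 and 3.14. Those lower in all 3 were led by Klk1b3, Slc5a2, Klk1c3, Ddc and Ugt2b35, at -5.47, -5.13, -5.13, -5.09 and -5.04. Igfbp3, which binds Igf1 in plasma, was among the lower 15 with -4.52, -3.71 and -4.12, opposite to Igf1. This ranking was made after the values were seen and is a description.

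Whether the zone difference itself depended on sex was tested in the same 12 arrays. No probe set passed (0 of 6118, 0%), and 518 (8.47%) had an unadjusted p under 0.05. Gatm, which starts the making of creatine, had the smallest p. Its differences were between -1.08 and -0.83 in the 3 females and between -2.87 and -2.65 in the 3 males, so that the sexes did not overlap, and the male minus female value was -1.84 ± 0.133 (adjusted p = 0.052). Cortex held 3058 units in females and 4148 in males, and outer medulla 1630 and 612. Adh1c, an alcohol dehydrogenase, was -1.02 in females and -4.99 in males (adjusted p = 0.355). Or1e31, an olfactory receptor gene, was -3.11 and -1.44 (adjusted p = 0.355), with the females at the floor in outer medulla. These 3 had the smallest p. Slc22a2, the organic cation carrier of the S3 list, was singled out after its values were seen, with -4.74, -3.25 and -2.49 in the females and 0.43, 0.48 and 0.01 in the males, a male minus female value of 3.80 ± 0.562 (adjusted p = 0.355). Its outer medulla values were 15.1, 35.9 and 119.7 in females and 1666, 1591 and 1733 in males, and its cortex values 341 to 671 and 1142 to 1715. With 3 rats of each sex, none of these genes passed the correction over all probe sets.

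The zone difference departed between the diets in a small share of probe sets in females. In 53 probe sets (0.866% of 6118) the outer medulla minus cortex difference of the 2 high-salt females departed from that of the 3 low-salt females, 31 upward and 22 downward. In males 0 passed (0%), with 218 (3.56%) at an unadjusted p under 0.05 against 906 (14.8%) in females. Without the male rat114 the count in males was 95. Whether the sexes differed in this respect was not tested. The 20 named genes are those with the largest changes each way.

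Genes of the fibrinogen chains and the injury marker Havcr1 shifted toward cortex in high-salt females. From low to high salt, Fgb went from 20.4 to 271 in cortex and 11.1 to 12.9 in outer medulla, a change of -3.43 ± 0.415 in the zone difference (adjusted p = 0.0129). Fgg and Fga changed by -3.66 and -3.04. Havcr1 went from 19.8 to 855 in cortex and 19.2 to 102 in outer medulla, a change of -2.80 ± 0.373. The 2 high-salt females had Havcr1 differences of -2.12 and -3.57, whereas the low-salt females lay between -0.21 and 0.06 and the males of both diets between -0.26 and 0.38. Kng2, a kininogen, Ripk3, a kinase of necroptosis, and Spp1 changed by -1.75, -1.77 and -1.65. For Spp1 the outer medulla excess of low salt (1.64 to 2.27) came to 0.42 and 0.06, with 1263 to 7902 in cortex and 4632 to 9272 in outer medulla. Gatm changed by -1.92, to -2.95 and -2.79 in the 2 high-salt females, next to -2.89 to -2.68 in the low-salt males.

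Other genes shifted toward outer medulla. The contractile genes Tagln and Myl9 changed by 1.42 and 1.14, the macrophage lysozyme Lyz2 by 1.82 and the complement gene C1qb by 1.23. Guca2a, the peptide guanylin, went from 47.8 to 50.5 in cortex and 29.3 to 185 in outer medulla (2.58 ± 0.198, adjusted p = 0.00399). Igfbp3 went from 1898 to 272 in cortex and 68.8 to 64.9 in outer medulla, and its zone difference changed by 2.62. Of the smooth muscle list, 2 of 7 genes passed upward, and of the injury list 3 of 14 downward, beside 0.507% and 0.36% of all probe sets. These calls rest on 2 high-salt females. Without rat106 the calls were 31 upward and 76 downward (1.75% of probe sets), without rat107 they came to 30, and leaving out the males rat109, rat110 or rat111, which enter through the shared spread, gave 29, 27 and 29. With the deposited scaling 33 passed, 5 upward and 28 downward, and with median scaling 33, 12 upward and 21 downward, so the balance of directions has no settled value.

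**Figure D5:**
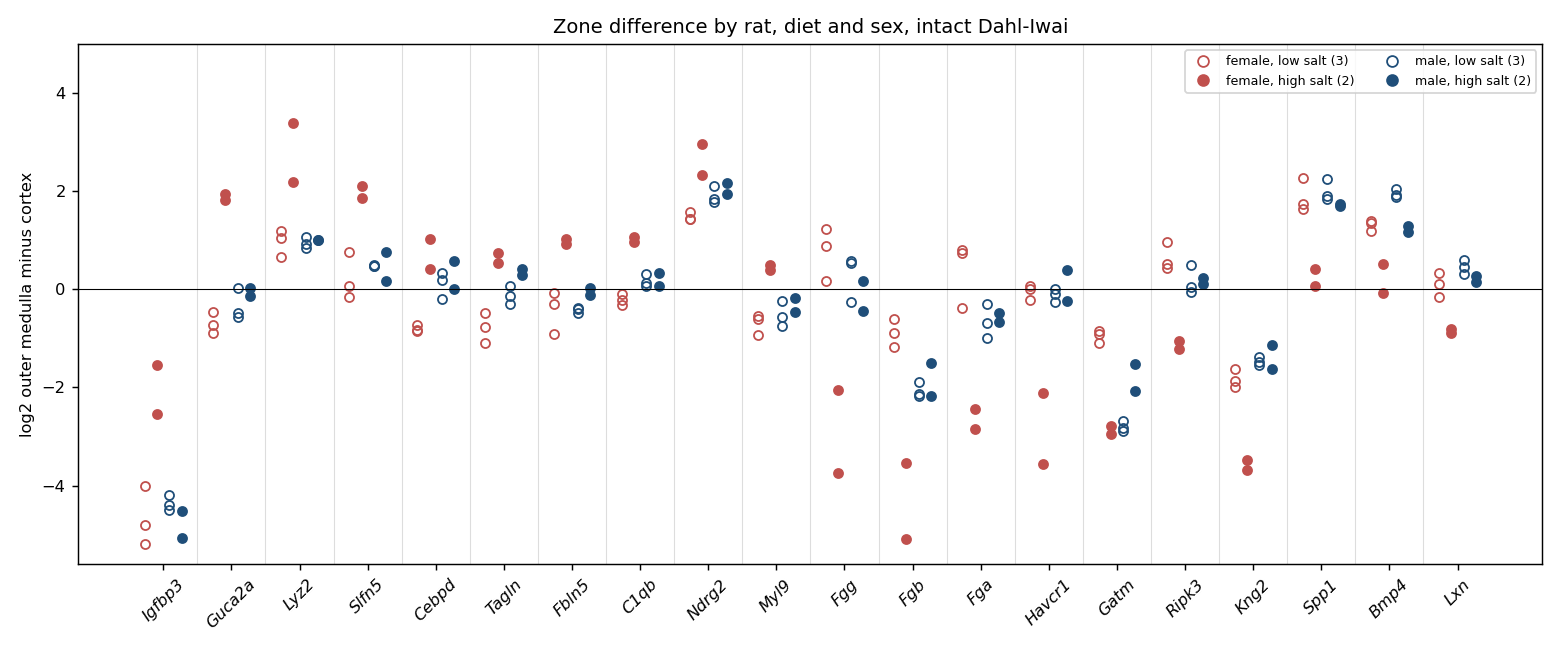
Log2 difference of outer medulla minus cortex in each intact Dahl-Iwai rat for the 20 named genes, with open points for low salt and filled for high salt, red for females and blue for males. For Havcr1 the 2 high-salt females lie at -2.12 and -3.57, below all other rats, and for Guca2a at 1.95 and 1.81, above all other rats.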

How the data were processed

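RNA of renal cortex and outer medulla was measured on an Affymetrix rat array of 8799 probe sets. The authors deposited linear intensities, per the labels from arrays stained with streptavidin-phycoerythrin, and how they were summarized, background-corrected and scaled is not given in the sources used here. Of the probe sets, 7006 had 1 gene symbol (6985 updated by Entrez ID), 308 several and 1426 none, and 59 were controls.

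The 12 arrays were quantile normalized, floored at their 20th percentile (3.28 units) and taken to log2. Controls and the dimmest 30% by mean intensity were dropped, and 6118 were tested. The tool limma 3.58.1 (R 4.3.3) estimated zone differences with the rat as a block, since both zones came from the same animal, and p-values were adjusted by Benjamini-Hochberg over all probe sets. A zone call needed an adjusted p under 0.05 and 2-fold, and interactions with sex or diet an adjusted p under 0.05. The 2 arrays of a rat had correlations of deviations from their zone means of -0.04 to 0.14 (median 0.0611), over 0.1 in 1 of 6 rats. The other experiments were fitted in the same way, each on its own 12 arrays, and the diet test on all 20 arrays of intact rats. The scripts were tested on simulated data.

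A gene with several probe sets was represented by the brightest. Of 79 named genes with several, 24 had at least 1 probe set of opposite sign. Near-identical families (kallikreins, Cyp2c, Slc22a, Ugt2b, globins) may share probes. Named genes were the 15 largest rises and falls moving one way in all 6 rats, up to 5 called members each way and the first 4 measured members of each list, the genes of fixed pairs, and for interactions the 10 largest calls each way or the 3 smallest p. The members and lists were chosen with earlier results of these data known. The sodium channel subunits, Ptgds, Slc22a2 in the test of sex and the ranking over 3 experiments were added after the values were seen. The array signals give no counts, so the number of rats limits the precision. Promoters came from RefSeq, build GRCr8.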

Additional observations from a re-analysis of the deposited data

Results flagged for a closer look

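Among the 6 paired differences of a gene, 1 rat lay apart from the other 5 by more than Dixon's 95% critical value for 6 samples in 24 of 203 named genes (11.8%), where chance flags about 1 in 20. The animal rat105 was that rat in 15 of the 24. It was the highest for Angpt2 (6.26), Slc22a13 (4.89), Hnmt (3.99), Dcn (2.01), Slc22a7 (1.68), Ttr (0.58), Col1a2 (0.53) and Ass1 (-1.21). It was the lowest for Atn1 (4.24), Stk39 (3.24), Pfkp (1.31), Mal (0.43), Kit (-0.63), Atp6v1g3 (-1.60), a proton pump subunit, and Lum (-2.13), a matrix proteoglycan.

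The other rats were set apart in fewer genes. The animal rat104 was highest for Egr1 (7.29) and Maob (-2.82), and rat103 for Sparc (2.42). The animal rat109 was lowest for Slc20a2 (1.24), Atp1b2 (-0.53) and Serpina1 (1.52). The animal rat110 was highest for Ehhadh (-1.54). The animal rat111 was lowest for Cd8b (3.14) and highest for Slc12a3 (-4.13).

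The zone difference of 20 named genes departed between high-salt and low-salt females by the interaction test. The changes toward outer medulla were 2.62 for Igfbp3, 2.58 for Guca2a, 1.82 for Lyz2, 1.77 for Slfn5, 1.52 for Cebpd, 1.42 for Tagln, 1.39 for Fbln5, 1.23 for C1qb, 1.16 for Ndrg2 and 1.14 for Myl9. The changes toward cortex were -3.66 for Fgg, -3.43 for Fgb, -3.04 for Fga, -2.80 for Havcr1, -1.92 for Gatm, -1.77 for Ripk3, -1.75 for Kng2, -1.65 for Spp1, -1.08 for Bmp4 and -0.95 for Lxn.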

How the results depend on the processing

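The zone difference had 1648 called probe sets, 1614 to 1676 when 1 rat was left out, and 929 with the lowest 50% of probe sets left out. With no minimum fold 4489 passed, with a 4-fold minimum 485 and with limma's treat test against 2-fold 1056. Of the calls, 406 were met in all 3 experiments, a setting added after seeing the data. As deposited 2212 were called, 1865 higher and 347 lower. Without the replicate block, the zone count was 1638, zone by sex 3 instead of 0, zone by diet 1.42% of probe sets instead of 0.866% in females and 0.0654% instead of 0% in males, and the other experiments 1389 and 1125. Zone by sex gave 1 call with the floor at the 40th percentile, 4 with no filter on low values, 1 with the lowest 50% left out and 1 with no variance trend, and 0 to 0 with a rat left out. Zone by diet in females gave 0.539% as deposited, 0.539% with median scaling and 0.441% (without rat110) to 1.75% (without rat106) with a rat left out, and in males 0% to 1.55% (without rat114). Gonadectomized rats gave 776 with the lowest 50% left out against 1392. Sprague-Dawley rats gave 1854 as deposited and 616 with the lowest 50% left out against 1135. As deposited, 14 named genes turned positive: Synpo 0.22, Atp1b2 0.24, Fxyd1 0.33, Pvalb 0.18, Flt1 0.062, Nos3 0.51, Col3a1 0.24, Tagln 0.089, Ptprc 0.45, Dlst 0.031, Hk2 0.19, Pfkl 0.23, Cyp2d3 0.29 and Agtr1b 0.18. With median scaling Rpl3 (-0.081) and Rpl4 (-0.015) turned negative. A narrower filter tests fewer probe sets, and the causes of the other shifts were not tested. Dim probe sets near the floor limit what folds can be read.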
